A study of Saccharomyces cerevisiae with 56 samples.

Results

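The 31 genes of budding yeast named ATG and a number were followed through ribosome profiling and RNA-seq. They were taken by gene name from the 6348 listed genes that are not dubious open reading frames. All 31 were among the 5592 of these with positions on which reads could be counted in every library. Footprint counts were at least 1 in every sample for each of them, but only 24 of the 31 reached 128 mRNA counts, the minimum of the study's methods, in all 28 samples.

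Autophagy delivers parts of the cell to the vacuole, the lysosome of yeast. A cup-shaped membrane grows around the cargo, closes into an autophagosome and fuses with the vacuole, where hydrolases break the contents down and permeases return the building blocks. The Atg1 kinase complex starts the process, Atg9 vesicles and the Atg2-Atg18 lipid transfer pair supply membrane, a phosphatidylinositol 3-kinase marks the site, and ubiquitin-like conjugation systems attach Atg8 to the growing membrane. Nutrient shortage releases the Atg1 complex from inhibition by the TORC1 kinase, and receptor proteins that bind Atg8 or the scaffold Atg11 select single cargoes such as mitochondria, peroxisomes or vacuolar enzymes.

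The study asked how translation efficiency (TE), the ratio of footprint to mRNA density, moves in cells short of nutrients and whether cycloheximide (CHX), an inhibitor of translation elongation added before harvest, distorts it. Each of the 28 samples gave 1 library of ribosome footprints and 1 of mRNA. Starved cells spent 20 min in medium without amino acids, and replete cells were the other part of the same culture. Only the starved part was first pelleted and resuspended, in a medium that per the paper also had no uracil or adenine added. These steps cannot be told apart from the loss of amino acids. The yeast metabolic cycle (YMC) was sampled at 16 time points in a glucose-limited chemostat.

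All starvation strains are MATa with the deletions met15-Δ0, ura3-Δ0, his3-Δ1 and leu2-Δ0 of the BY4741 background. Starved and replete samples with CHX came from BY4741 itself and from 3 strains with a reporter. In yJW1862 and yJW1861 the NOP2 coding sequence, for a ribosome biogenesis factor, is that of Kluyveromyces lactis (nop2::klNOP2), and a further NOP2 copy at YHRCdelta14, marked with kanMX6, is driven by its own promoter (PNOP2) in yJW1862 and by PCCW12 in yJW1861. In yJW1863 the NOP2 promoter drives EGFP between ADH1 UTRs. A starved and a replete sample with CHX also came from yJW1864, labelled dot6::LEU2 tod6::URA3 stb3::kanMX6, which would lack 3 repressors of ribosome biogenesis genes. The LEU2 and URA3 markers are in none of the other starvation strains, so they cannot be told apart from the deletions. A starved and a replete sample without CHX came from BY4741 alone. The YMC strain is CEN.PK, a MATa prototroph, and all its samples had CHX. Each strain gave 1 starved and 1 replete sample with CHX, so the 4 strains with CHX serve as the replicates of the starvation response, and p-values measure the spread between these strains.

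Libraries held between 9648356 and 14773359 mRNA counts and between 3632217 and 20036606 footprint counts in the starvation samples. In the YMC they held 14537913 to 23693465 mRNA counts and 10133399 to 27429226 footprint counts. In the strain labelled yJW1864, DOT6 had 9 mRNA counts in the starved and 4 in the replete library, and TOD6 had 0 in the starved and 1 in the replete library. STB3 had 1062 counts in the starved and 921 in the replete library. The other strains with CHX had 1261 to 1624 in starved and 974 to 1139 in replete libraries, before scaling for depth. Counts of this size go against the labelled stb3 deletion, and whether it is partial was not tested.

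In the 4 strains with CHX, starvation raised the mRNA of most ATG genes relative to the rest of the library. In bulk samples the number of cells and the RNA per cell cannot be told apart. Of the 30 genes that reached means of 128 mRNA counts and 1 footprint, 26 rose and 1 fell at an adjusted p under 0.05 in edgeR's quasi-likelihood test. Across all 5064 genes tested, 42.1% rose and 38.1% fell. The median log2 change of the 30 was 0.84, against 0.03 over all genes. In footprints, 26 genes were called higher and 1 lower, where 39.8% of all genes rose and 36.1% fell. Their median log2 change was 1.14, against 0.06 over all genes. By the deposited RPKM (reads per kilobase of coding sequence, scaled to library size), the 4 starved mRNA values lay above all 4 replete values for 25 of the 31 genes, where 40.9% of all genes did, and below them for 1, where 21.6% of all genes did. For footprints the starved values lay above for 22 of the 31, where 31.8% of the 5061 did. Over all genes the starved RPKM was higher by a median of 0.19 to 0.23 (log2) in mRNA and 0.27 to 0.39 in footprints of the 4 strains, which the tests and the plotted changes take out and the RPKM printed here do not.

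**Figure D1:**
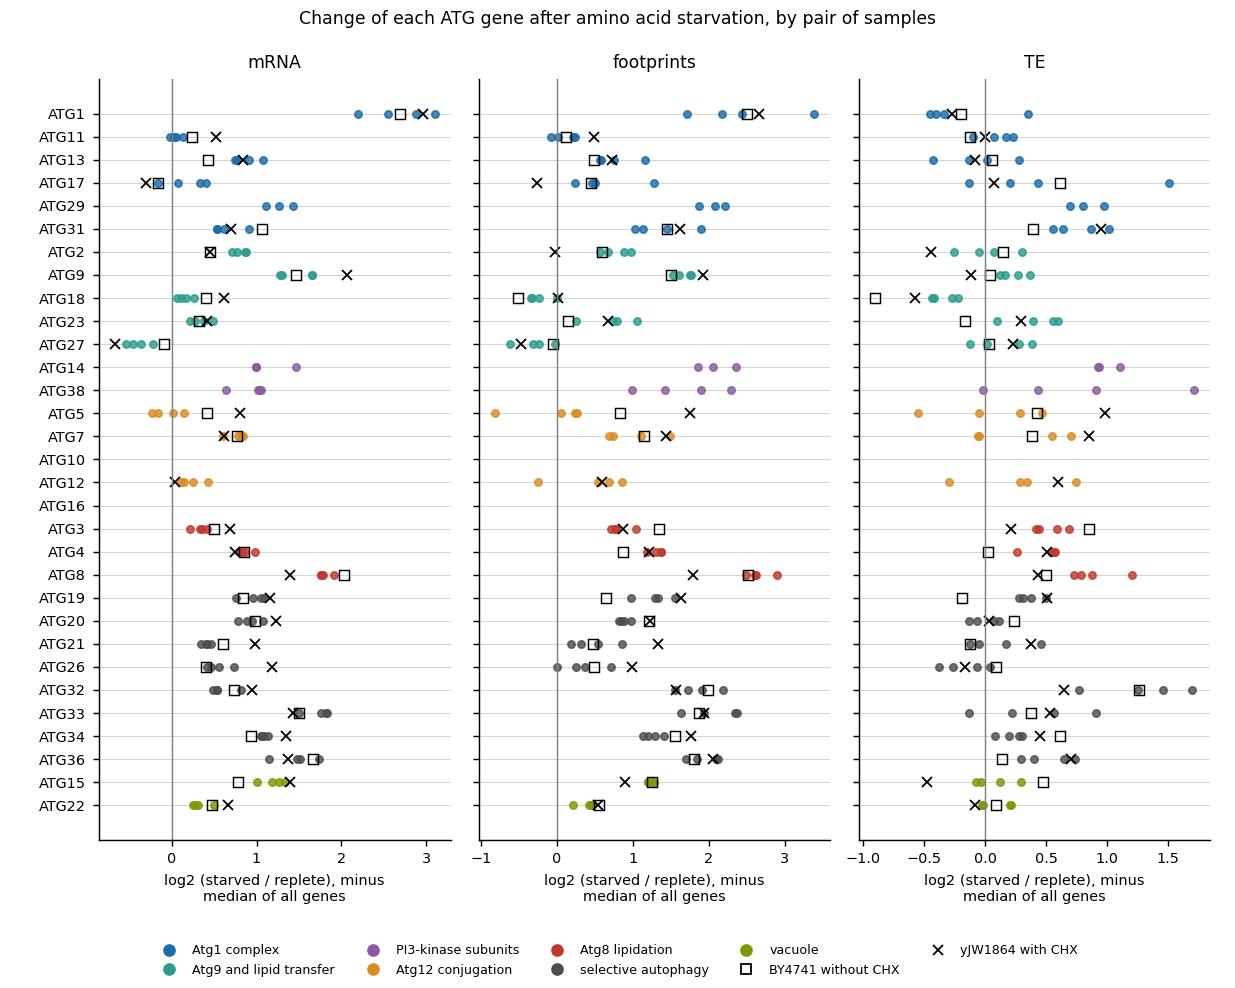
The log2 ratio of starved to replete RPKM, minus the median of all genes in that pair, is plotted for mRNA, footprints and TE (x axes) for each ATG gene (y axis). Filled points are the 4 strains with CHX, coloured by role, crosses are the strain labelled yJW1864, and open squares are BY4741 without CHX. A point is drawn only where both samples of the pair reached 128 mRNA counts and 1 footprint, so ATG10 and ATG16 have none.

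The kinase complex that starts autophagy held the largest mRNA change. ATG1 encodes the kinase itself and lies on chromosome VII at 160065 to 162758 (R64, the same assembly as the sacCer3 build of the labels). Its mRNA stood at 144, 115, 113 and 94.2 RPKM in starved BY4741, yJW1862, yJW1863 and yJW1861, against 14.8, 17.2, 13.0 and 17.8 RPKM in the replete parts of the same cultures. The lowest starved value was several times the highest replete one. The log2 change was 2.71 ± 0.13 (SE, adjusted p = 5.4e-08, edgeR). Footprints of ATG1 reached 43.5, 34.5, 40.1 and 32 RPKM in starved cells, against 3.27, 6.11, 5.61 and 8.09 RPKM in replete cells, a log2 change of 2.46 ± 0.23. TE of ATG1 did not pass the test, at -0.29 ± 0.29 on the log2 scale.

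Of the 6 genes for the Atg1 complex and its scaffolds, 4 rose in mRNA, where 42.1% of all genes did, and 5 in footprints, where 39.8% did. ATG13, the regulatory subunit that TORC1 phosphorylates, had 29.1, 39.0, 34.4 and 39.2 RPKM of mRNA in the 4 starved strains, against 12.2, 19.9, 15.5 and 20.4 RPKM in the replete strains. Every starved value lay above every replete value, and the log2 change was 0.90 ± 0.07 (adjusted p = 1.26e-06, edgeR). ATG29 and ATG31 encode the small proteins that bind the scaffold Atg17. ATG29 mRNA rose by 1.41 ± 0.11 and its footprints by 2.22 ± 0.16, and ATG31 mRNA rose by 0.68 ± 0.08 and its footprints by 1.42 ± 0.16 (log2, SE). ATG17, the scaffold of the starvation-induced complex, was not called in mRNA (0.20 ± 0.11, adjusted p = 0.111, edgeR) but was called in footprints (0.60 ± 0.18, adjusted p = 0.0115, edgeR). That call was lost without the strain as a block (adjusted p = 0.111) and with yJW1864 added (adjusted p = 0.0823, edgeR). ATG11, the scaffold used in selective autophagy, passed neither test, at 0.07 ± 0.05 in mRNA and 0.13 ± 0.11 in footprints.

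Atg8 is the ubiquitin-like protein that is joined to a lipid and coats the autophagosome, and its gene had the largest footprint change. It lies on the minus strand of chromosome II at 80378 to 80731. Starved cells held 193, 190, 137 and 215 RPKM of ATG8 mRNA, against 50.3, 49.2, 30.9 and 54.2 RPKM in replete cells, for BY4741, yJW1862, yJW1863 and yJW1861. Footprints stood at 284, 350, 308 and 375 RPKM in the starved strains, against 30.1, 49.6, 38.4 and 50.7 RPKM in the replete strains. The lowest starved library thus had several times the footprints of the highest replete one. The log2 changes were 1.83 ± 0.06 in mRNA (adjusted p = 6.31e-09) and 2.69 ± 0.10 in footprints (adjusted p = 9.55e-09, both edgeR). The enzymes that act on Atg8 moved less: ATG3, which transfers it to the lipid, rose by 0.36 ± 0.08 in mRNA and ATG4, the protease that trims and releases it, by 0.89 ± 0.07.

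**Figure D2:**
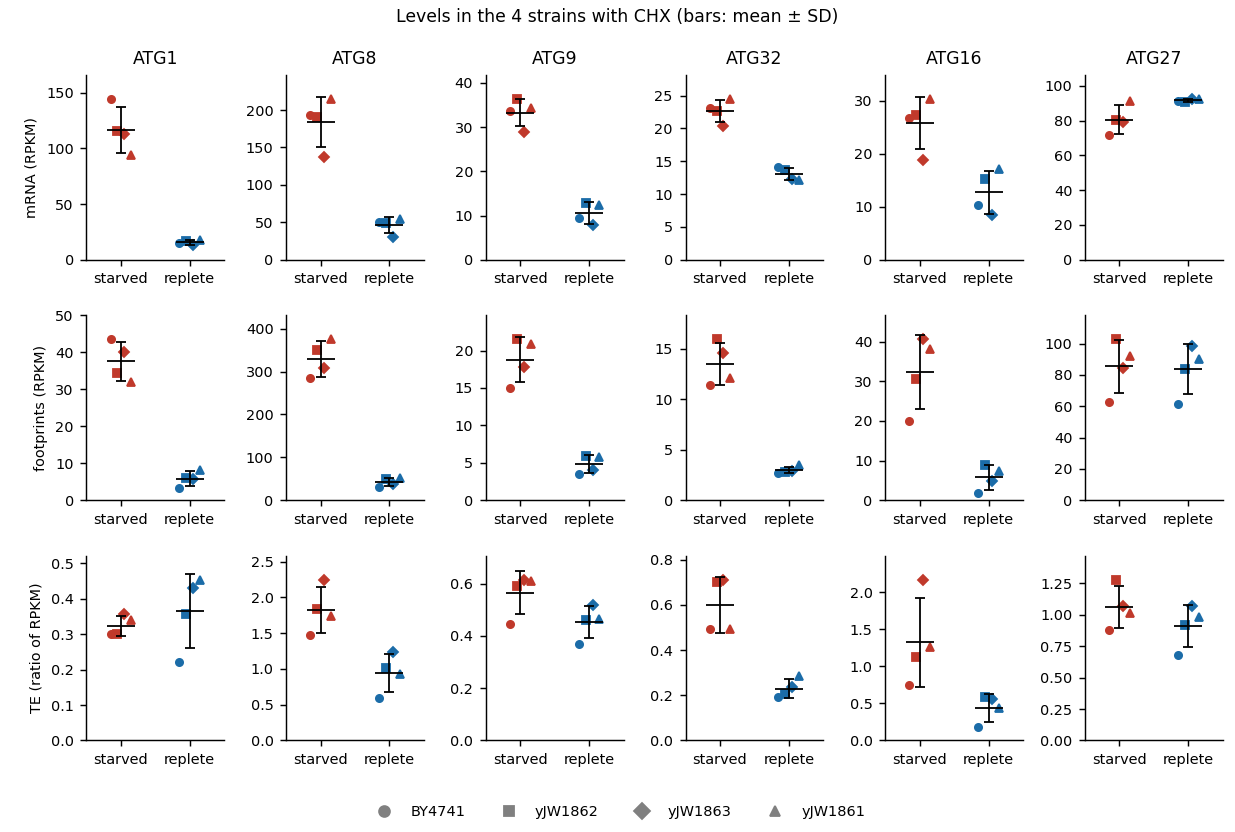
Levels of 6 genes in the 4 strains with CHX, starved left and replete right in each panel, with mRNA and footprints in RPKM and TE as their ratio (y axes from 0). Symbols are strains and bars are the mean ± SD (n = 4). The starved and replete mRNA values are apart for every gene shown except ATG27, and in TE they are apart for ATG8, ATG32 and ATG16.

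Of 4 genes tested in the Atg12 conjugation system, 3 rose in mRNA, where 42.1% of all genes did, and 3 in footprints, where 39.8% did. Atg7 is the activating enzyme shared by both conjugation systems, and its mRNA rose by 0.79 ± 0.06. ATG16, which joins Atg12-Atg5 into the complex that guides Atg8 to the membrane, rose by 0.86 ± 0.12 in mRNA and 2.30 ± 0.25 in footprints. ATG16 rests on few counts, since all its replete libraries lay under 128 mRNA counts, at 69 to 111 in the 4 strains. ATG12 rose by 0.26 ± 0.09 in mRNA and 0.60 ± 0.21 in footprints, with overlapping RPKM in both. Its mRNA call was lost without yJW1862 or yJW1861, without the strain as a block, with yJW1864 added and in DESeq2, and its footprint call without yJW1862, yJW1863 or yJW1861 and without the block. ATG5, the protein that Atg12 is joined to, had 41.0, 24.1, 35.5 and 23.5 RPKM of mRNA in starved cells, against 35.7, 23.5, 27.4 and 24.1 RPKM in replete cells. These overlap, and ATG5 passed the test in neither mRNA (-0.02 ± 0.08) nor footprints (-0.04 ± 0.23).

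ATG9 encodes the membrane protein whose vesicles seed the autophagosome. Its mRNA stood at 33.7, 36.4, 28.9 and 34.2 RPKM in the starved strains, against 9.40, 12.9, 7.80 and 12.3 RPKM in the replete strains. The log2 change was 1.50 ± 0.08 in mRNA and 1.69 ± 0.10 in footprints, with no overlap in either. Of the 5 genes in this group 4 rose and 1 fell in mRNA, where 42.1% of all genes rose and 38.1% fell. ATG2, the lipid transfer protein, rose by 0.83 ± 0.05 in mRNA, while its partner ATG18 rose by only 0.18 ± 0.06, a call lost without yJW1862, without the strain as a block and in DESeq2, and was not called in footprints (-0.20 ± 0.11). ATG23 and ATG27 encode factors that carry Atg9 to the assembly site. ATG23 mRNA rose by 0.37 ± 0.08. ATG27 was the gene called lower in both measures, at -0.37 ± 0.06 in mRNA (adjusted p = 0.000235) and -0.27 ± 0.10 in footprints (adjusted p = 0.0361, both edgeR). The footprint call was lost without yJW1863 (-0.13, adjusted p = 0.371), without yJW1861 and without the strain as a block. Its mRNA was 71.6, 80.4, 79.1 and 91.3 RPKM in starved cells, against 91.3, 90.6, 92.3 and 92.4 RPKM in replete cells, so that the starved yJW1861 value fell among the replete ones.

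Both autophagy subunits of the phosphatidylinositol 3-kinase rose in mRNA, where 42.1% of all genes did, and in footprints, where 39.8% did. ATG14, which directs the kinase to autophagy, changed by 1.27 ± 0.11 in mRNA and 1.90 ± 0.21 in footprints, and ATG38, which holds the complex together, by 0.97 ± 0.09 and 1.65 ± 0.21 (log2, SE). In the vacuole, the lipase gene ATG15 rose by 1.22 ± 0.07 in mRNA. ATG22, a permease for amino acids, rose by 0.36 ± 0.06.

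All 8 genes listed under selective autophagy rose in mRNA, where 42.1% of all genes did, and in footprints, where 39.8% did. The list leaves out ATG11, the scaffold used in selective autophagy, which was grouped with the Atg1 complex and called in neither measure. The footprint call of ATG26 was lost without BY4741 or yJW1862 (adjusted p of 0.0587 and 0.0569, edgeR). ATG33, which acts in the breakdown of mitochondria, had 167, 127, 117 and 146 RPKM of mRNA in the starved strains, against 41.2, 39.1, 28.1 and 37.6 RPKM in the replete strains. That is a log2 change of 1.75 ± 0.07 in mRNA, with 2.11 ± 0.13 in footprints. ATG36, the peroxisome receptor, changed by 1.50 ± 0.10 in mRNA and 1.98 ± 0.13 in footprints. ATG32, the receptor for mitochondria, rose by 0.61 ± 0.07 in mRNA and 1.87 ± 0.15 in footprints. ATG19 and ATG34 are neighbouring genes for paralogous receptors of vacuolar hydrolases, and they rose by 0.99 ± 0.06 and 1.11 ± 0.06 in mRNA. Positions that cannot be told apart by sequence had been masked by the authors. The sorting nexin gene ATG20, the phosphoinositide-binding ATG21 and the sterol glucosyltransferase gene ATG26 rose by 0.95 ± 0.06, 0.43 ± 0.05 and 0.56 ± 0.06.

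TE passed the test for a smaller number of ATG genes than mRNA or footprints. Of the 30 tested, 9 rose and 1 fell, where 15.8% of all genes rose and 25.3% fell. The median log2 change was 0.25, against -0.04 over all genes. By RPKM, TE in the 4 starved samples lay above all 4 replete samples for ATG4, ATG8, ATG16, ATG32 and ATG38, 5 of the 31, where 10.0% of all genes did. ATG32, the mitochondrial receptor, had TE of 0.493, 0.701, 0.712 and 0.494 in starved BY4741, yJW1862, yJW1863 and yJW1861, against 0.193, 0.204, 0.237 and 0.284 in replete cells. It changed by 1.22 ± 0.15 (adjusted p = 8.64e-05, edgeR), and the 2 sets were apart. ATG8 had TE of 1.47, 1.84, 2.25 and 1.75 in starved cells, against 0.598, 1.01, 1.24 and 0.935 in replete cells, a change of 0.83 ± 0.10 (adjusted p = 8.66e-05, edgeR). The lowest starved value of ATG8 lay above the highest replete one.

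The largest TE change was that of ATG16, which had TE of 0.747, 1.12, 2.17 and 1.26 in the 4 starved strains, against 0.181, 0.584, 0.56 and 0.437 in the replete strains. It changed by 1.40 ± 0.28 (adjusted p = 0.00209, edgeR) and rests on 22 to 76 footprints in the replete libraries. ATG29 and ATG31 followed at 0.77 ± 0.19 and 0.72 ± 0.18. Smaller rises were called for ATG38 (0.64 ± 0.23), ATG3 (0.46 ± 0.12), ATG36 (0.46 ± 0.16) and ATG4 (0.42 ± 0.11), and ATG18 fell by 0.40 ± 0.11 (adjusted p = 0.0112, edgeR). All 3 genes of the Atg8 group, ATG3, ATG4 and ATG8, were called higher, where 15.8% of all genes were. ATG7, the activating enzyme shared by both conjugation systems, was grouped with Atg12 conjugation and was not called. Also called higher were 1 of 4 tested in the Atg12 group, 2 of 6 in the Atg1 group, 2 of 8 in selective autophagy and 0 of 5 in the Atg9 group. Without the strain as a block, ATG8 was the 1 gene of the Atg8 group still called, at adjusted p of 0.0754 for ATG3 and 0.131 for ATG4 (edgeR), and the others still called were ATG16 and ATG32. TE of ATG9 (0.17 ± 0.12) and ATG13 (-0.12 ± 0.14) was not called. The number of ATG genes called in TE depended on the design: without the strain as a block it was 3, without yJW1863 it was 5, and without BY4741 it was 13.

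The rest of the pathway, taken from lists of textbook genes, is set here against the 42.1% of all genes that rose and the 38.1% that fell in mRNA. All 4 other subunits of the phosphatidylinositol 3-kinase complexes rose in mRNA, led by VPS34, the catalytic subunit, at 1.01 ± 0.07. All 8 vacuolar hydrolases rose, among them AMS1, the vacuolar mannosidase carried by Atg19 and Atg34, at 1.62 ± 0.05, LAP4, the aminopeptidase that is the main cargo of Atg19, at 1.48 ± 0.06, and the proteinases PRB1 at 1.14 ± 0.06 and PEP4 at 0.75 ± 0.07. Of 14 genes for fusion with the vacuole, 7 rose and 1 fell, a share of rises near that of all genes, with VTI1, a SNARE protein, highest at 0.81 ± 0.06. SNX4, SNX41, TRS85 and VAC8, which serve selective autophagy or vesicle transport, all rose, SNX41 most at 0.66 ± 0.05. Of 8 regulators of ATG transcription 3 rose, also near the share of all genes, and 1 fell: the GATA factor genes GAT1 by 3.14 ± 0.07 and GLN3 by 1.51 ± 0.08, and GCN4, the activator of amino acid synthesis genes, by 0.52 ± 0.09, while RPH1, a repressor, changed by -0.13 ± 0.05.

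In TE, 0 of the 8 hydrolase genes were called higher and 2 lower, where 15.8% of all genes were higher and 25.3% lower. Of the 4 other kinase subunits 1 was called higher, VPS38 at 0.42 ± 0.10. Of the 14 fusion genes 3 were called higher and 1 lower. Among SNX4, SNX41, TRS85 and VAC8, 2 of 4 were called higher and 0 lower. Of the 8 regulators 3 were called higher and 2 lower. TE of GCN4, known to be held down by upstream reading frames in fed cells, rose by 3.90 ± 0.19 in the same strains. The largest TE change of the 30 ATG genes, that of ATG16, was 1.40. The repressor genes UME6, SIN3, RPD3 and PHO23 were not called in mRNA. The genes ATG39, ATG40, ATG41, ATG42 and ATG44 stand in the files under systematic or older names and so are not among the 31. Of these, 3 could be tested and all 3 rose in mRNA, where 42.1% of all genes did. ATG41, which works with Atg9, rose by 3.64 ± 0.11, ATG42, a vacuolar carboxypeptidase, by 1.12 ± 0.06, and ATG40, a receptor for the endoplasmic reticulum, by 0.52 ± 0.09. In TE 1 of the 3 was called higher.

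The response was also present in BY4741 without CHX, where cells were collected by vacuum filtration with no drug before harvest, while cells with CHX were pelleted by centrifugation. There is 1 starved and 1 replete sample, so values carry counting intervals and no replicate error. Among the 25 ATG genes above the minimums in both samples, 23 had a positive mRNA change and 23 a positive footprint change after the median of all genes was subtracted. The median ATG change was 0.74 in mRNA, 0.87 in footprints and 0.14 in TE (log2). With CHX, the medians in the 4 strains were 0.74 to 0.87 in mRNA, 0.80 to 1.16 in footprints and 0.25 to 0.30 in TE. The mRNA was more than 2-fold higher for 6 of the 25, where 7.59% of all genes reached that size.

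ATG1 mRNA without CHX was 101 RPKM in starved and 12.9 RPKM in replete cells, a log2 change of 2.70 (95% counting interval 2.58 to 2.82). ATG8 stood at 203 RPKM in the starved and 41.2 RPKM in the replete sample, a change of 2.03 (1.80 to 2.25). ATG9 changed by 1.47 (1.32 to 1.62) and ATG13 by 0.43 (0.30 to 0.56). The starvation induction of the kinase, of Atg8 and of Atg9 was thus measured with and without the drug. TE changed by 1.26 (0.63 to 1.89) for ATG32, by 0.50 (0.11 to 0.89) for ATG8 and by -0.91 (-1.24 to -0.57) for ATG18.

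**Figure D3:**
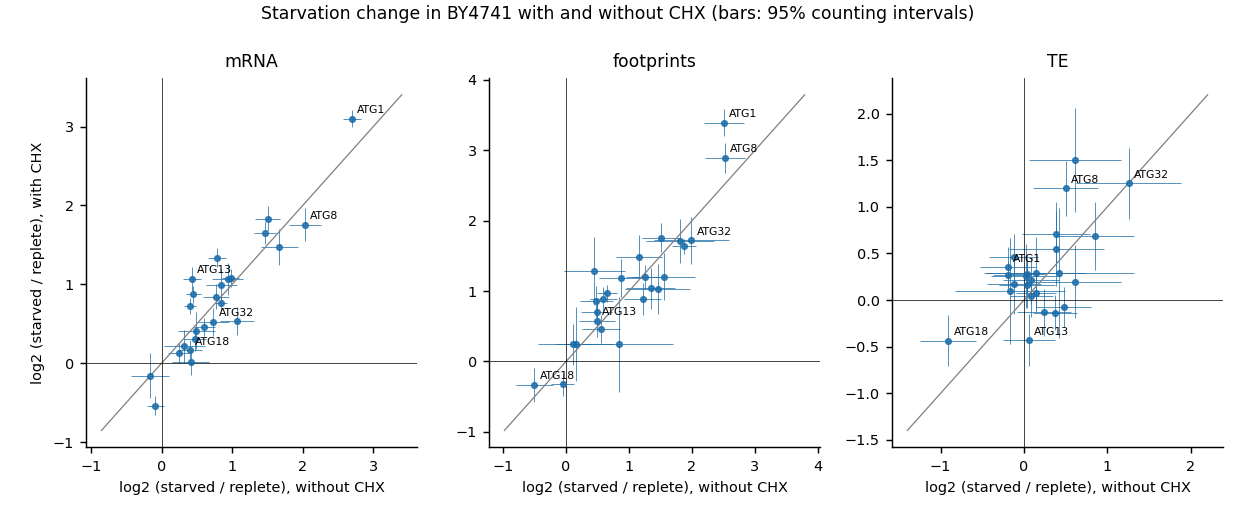
Starvation change of 25 ATG genes in BY4741 without CHX (x axis) and with CHX (y axis), as log2 ratios of RPKM minus the median of all genes, for mRNA, footprints and TE. Bars are 95% counting intervals and the grey line marks equal change. ATG1 and ATG8 lie at the upper right in mRNA and footprints, while TE values crowd around 0 with ATG32 at the right and ATG18 at the left.

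The difference between the pair without CHX and the 4 strains with CHX was tested as an interaction. None of the 30 ATG genes was called in mRNA, footprints or TE by edgeR, where 5.71%, 0.515% and 2.68% of all genes were called. At an unadjusted p under 0.05 there were 5, 1 and 0 genes. The 5 in mRNA were ATG2 (-0.35 ± 0.11), ATG5 (0.46 ± 0.19), ATG12 (0.87 ± 0.23), ATG13 (-0.44 ± 0.14) and ATG15 (-0.42 ± 0.13), with positive values meaning a larger rise without CHX. ATG12 came nearest to a call (adjusted p = 0.0569, edgeR) and was called when yJW1861 was left out. In mRNA the difference was 0.01 ± 0.27 for ATG1, 0.22 ± 0.14 for ATG8 and -0.01 ± 0.17 for ATG9. ATG8 had a TE difference of -0.35 ± 0.26, so differences of that size could not be detected with 1 pair.

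Set side by side in BY4741, the median difference between libraries with and without CHX was about the same for the ATG genes as for all genes. The spread of the differences around these medians was not compared. The median difference, with CHX over without CHX, was -0.04 in mRNA and 0.09 in TE of starved cells (29 genes), and -0.13 in mRNA and 0.04 in TE of replete cells (25 genes), after subtracting the median of all genes. That median was 0.23 for mRNA and -0.94 for TE in starved cells, and 0.29 and -0.80 in replete cells. Before subtraction, the TE ratio of ATG genes was therefore lower with CHX, as for genes in general. Footprint and mRNA RPKM are each scaled to their own library, so this shift is no measure of absolute TE. ATG5 stood out in mRNA, at 0.77 (0.57 to 0.96) in starved and 1.19 (0.95 to 1.43) in replete cells. ATG13 differed the other way, at -0.42 (-0.54 to -0.31) in starved and -1.04 (-1.20 to -0.87) in replete cells. Each value rests on 1 pair of libraries, and CHX cannot be told apart from the mode of harvest.

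In the strain labelled yJW1864, the median ATG change was 0.83 in mRNA, 1.22 in footprints and 0.26 in TE for the 26 genes above the minimums. ATG1 stood at 128 RPKM of mRNA in the starved and 14.4 RPKM in the replete sample, and ATG9 at 30.3 RPKM in the starved and 6.29 RPKM in the replete sample. Tested against the 4 strains, the mRNA response of 5 ATG genes was larger and that of none was smaller at an adjusted p under 0.05, where 12.9% of all genes were called larger and 4.15% smaller. With DESeq2's size factors as the scaling, 4 ATG genes were called larger and 1, ATG2, smaller. Under that scaling 3 were called in footprints, ATG5 larger and ATG2 and ATG8 smaller.

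The 5 genes were ATG5, at 0.85 ± 0.16 (adjusted p = 0.00787), ATG26 at 0.64 ± 0.14, ATG21 at 0.57 ± 0.11, ATG11 at 0.47 ± 0.11 and ATG18 at 0.46 ± 0.12 (adjusted p = 0.0298, edgeR). ATG5 mRNA was 82.7 RPKM in the starved yJW1864 library and 41.4 RPKM in its replete one, against 23.5 to 41.0 RPKM in the 4 starved strains and 23.5 to 35.7 RPKM in the replete ones. ATG5 also differed in footprints, by 1.82 ± 0.42 (adjusted p = 0.0204, edgeR), the 1 gene called larger, where 10.0% of all genes were. ATG8 was the 1 gene called smaller, where 2.83% of all genes were. Its footprints were 105 RPKM in starved and 26.7 RPKM in replete cells of the strain, a response smaller by 0.87 ± 0.23 (adjusted p = 0.0387, edgeR). In 3 of the 4 fits that left out 1 of the 4 strains the ATG8 call was lost, at adjusted p of 0.0655 to 0.084. The mRNA difference was 0.28 ± 0.28 for ATG1, -0.41 ± 0.16 for ATG8, 0.60 ± 0.18 for ATG9 and -0.03 ± 0.15 for ATG13, none of them called. No ATG gene was called in TE by edgeR, with 2 at an unadjusted p under 0.05 (ATG5 and ATG15) and 3.14% of all genes called. ATG18 lost its mRNA call without yJW1862, yJW1863 or yJW1861, and ATG11 without yJW1862 or yJW1863. Without yJW1862 the mRNA count was 3. The footprint count was 5 without BY4741 and 1 without any other strain.

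Over the YMC, most ATG mRNAs were highest late in reductive charging and lowest at the end of the oxidative phase. Cells in this cycle pass through a reductive building (RB) phase, a reductive charging (RC) phase of little respiration, and an oxidative (OX) phase in which oxygen is consumed. Each time point is 1 sample, so no test was made, and the 24 genes above the minimums in all 16 samples are described. All 16 samples had CHX, so effects of the drug on mRNA, footprints or TE cannot be told apart from the cycle. In mRNA all 24 stood above their own mean at time point 6 (RC, 2.43 h), where 40.7% of all genes did, and again at time point 8 (RC to OX, 3.20 h), where 45.7% did. At time point 11 (OX, 3.62 h) all 24 lay below it, as did 62.7% of all genes. The median ATG gene was at 0.52 relative to its own mean at time point 6 and at -1.20 at time point 11 (log2), while all genes had medians of -0.10 and -0.23.

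**Figure D4:**
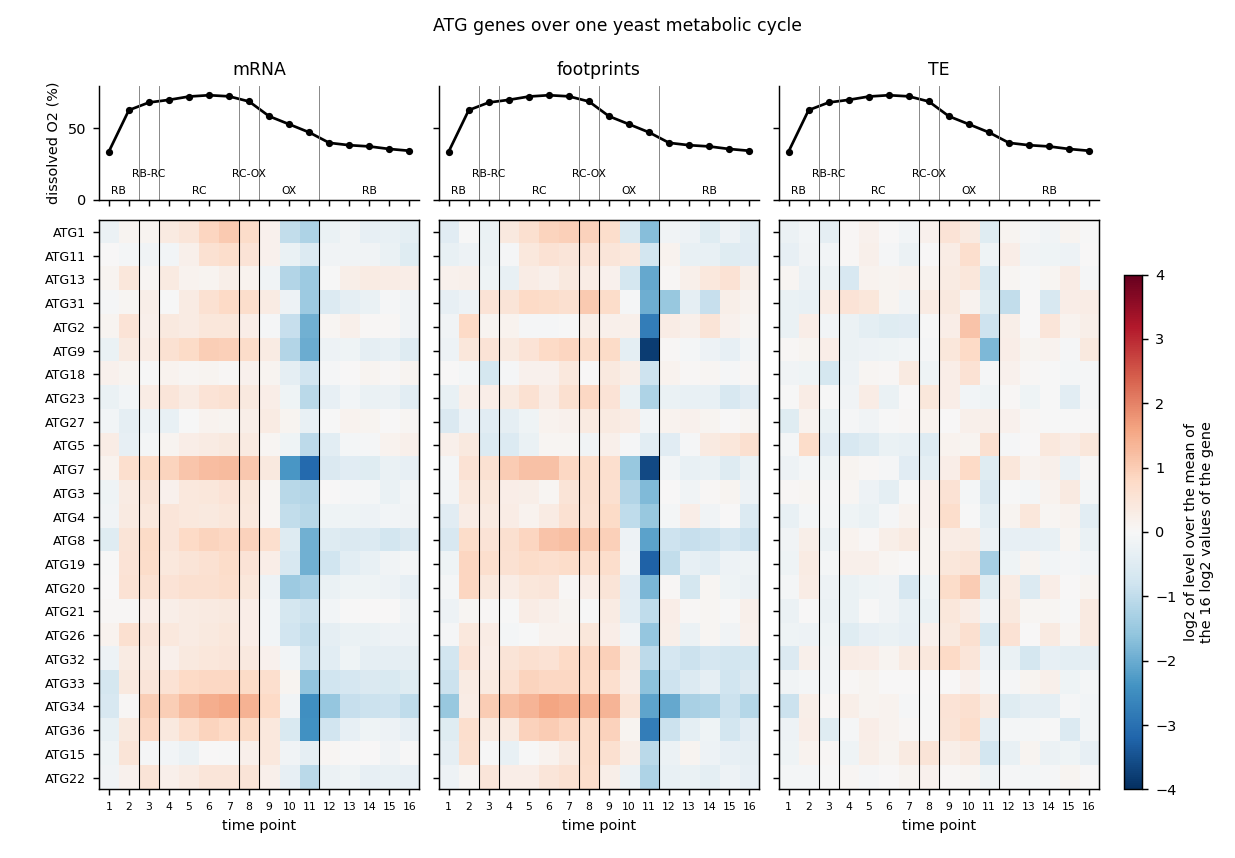
Dissolved oxygen in percent (top) and the log2 level of 24 ATG genes over each gene's own mean of 16 log2 values (colour) by time point (x axis), for mRNA, footprints and TE. Vertical lines separate the phases. The RC columns are mostly red in mRNA and footprints, and the column of time point 11 is blue for all 24 genes in both.

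The highest mRNA value fell in RC for 16 of the 24 genes, at the RC-to-OX sample for 2, in RB for 5 and in OX for 1, where 14.6%, 1.49%, 47.4% and 26.9% of all genes peaked. The lowest value fell in OX for 23 of 24, where 43.3% of all genes had theirs. That count rests on time point 11, without which 11 of 24 had their lowest mRNA in OX, where 29.2% of all genes did, and 12 in RB. With time point 11, the exception was ATG27, the gene called lower under starvation. Its mRNA lay between 48.8 RPKM at time point 2 and 78.5 RPKM at time point 9, the narrowest range of the 24.

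ATG7 had the widest mRNA range. Its mRNA over time points 1 to 7 was 19.9, 29.0, 31.2, 33.9, 39.4, 42.8 and 44.2 RPKM. At time points 8 to 11 it was 38.4, 23.9, 3.64 and 2.11 RPKM, and afterwards it lay between 12.2 and 15.0 RPKM at time points 12 to 16. That is a 21.0-fold range (95% counting interval 17.5 to 25.1). The receptor gene ATG34 came next, 15.8-fold (14.0 to 17.9), with 114 RPKM at time point 7 and 7.22 RPKM at time point 11. ATG36 ranged 9.94-fold, ATG9 7.77-fold, ATG8 7.21-fold and ATG19 6.32-fold. All of these had their highest mRNA at time points 6 to 8 and their lowest at time point 11.

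The starvation-induced kinase gene ATG1 stood at 42.4 RPKM at time point 1, 102 RPKM at time point 7 and 21.2 RPKM at time point 11, a 4.80-fold range. ATG13 ranged 3.74-fold, with 25.8 RPKM at time point 2 and 6.90 RPKM at time point 11. ATG8 mRNA lay between 140 and 191 RPKM from time point 2 to time point 9, then at 26.5 RPKM at time point 11 and between 60.7 and 69.8 RPKM in the RB samples that followed.

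Of the 24 genes, 11 had an mRNA range of at least 4-fold, where 29.7% of all genes did. In footprints 16 did, where 49.2% of all genes did. These counts rest largely on time point 11: without it they were 5 and 4, where 24.9% and 42.1% of all genes reached 4-fold. The libraries of time point 11 held 17799518 mRNA and 22632381 footprint counts, within the range of the other time points. In mRNA the lower levels were not confined to that sample, since all 24 genes had less at time point 10 than at time point 9, where 53.4% of all genes did. Footprints of all 24 were also lower at time point 10 than at time point 9, where 48.8% of all genes were. Yet 9 of 24 still lay above their own footprint mean at time point 10, where 62.7% of all genes did. TE of 21 of 24 lay above its own mean there, where 86.9% of all genes did. All 24 had more mRNA at time point 12 than at time point 11, where 68.3% of all genes did.

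**Figure D5:**
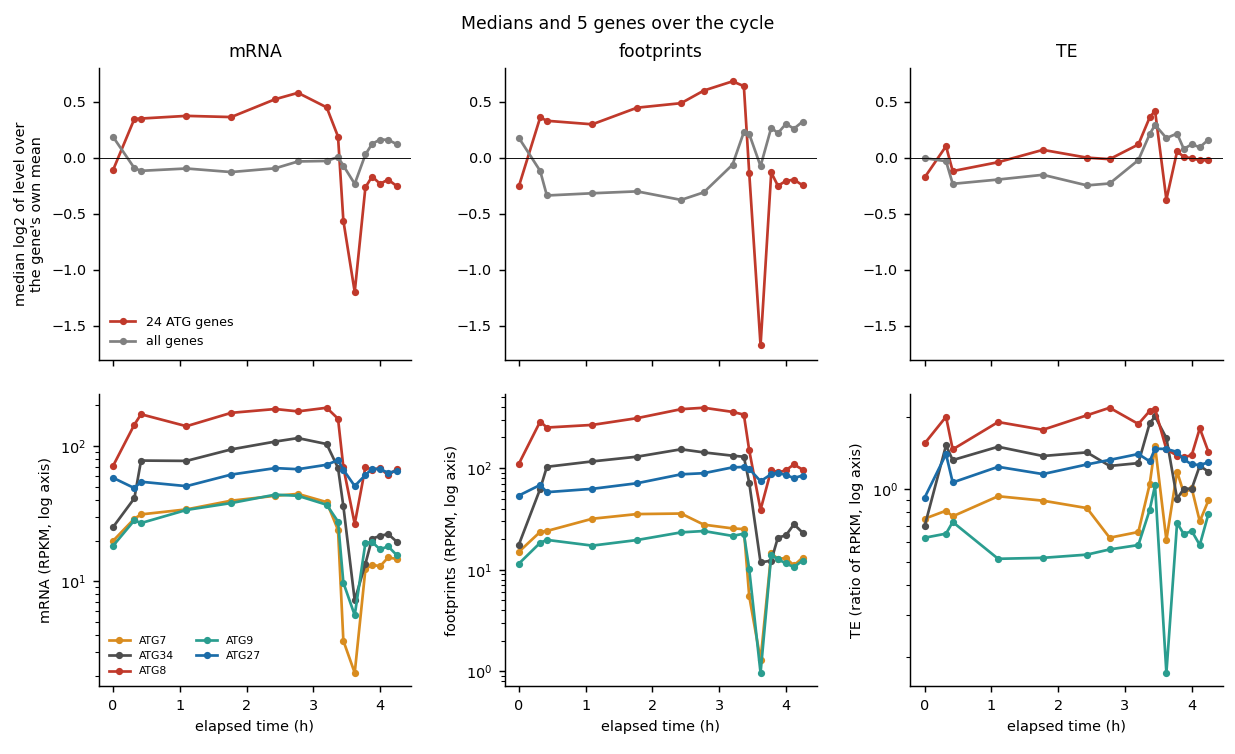
Top, the median log2 level over each gene's own mean for 24 ATG genes and for all genes against elapsed time in hours. Bottom, RPKM of mRNA and footprints and TE of 5 genes on log axes. The ATG median in mRNA lies above 0 from 0.32 h to 3.37 h and is lowest at 3.62 h, at -1.20, where the median of all genes is -0.23.

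At time point 11 the footprints of all 24 ATG genes lay below their own mean, where 53.5% of all genes did, with a median of -1.67, against -0.08 over all genes. ATG9 footprints stood at 22.6 RPKM at time point 9, 10.1 RPKM at time point 10 and 0.965 RPKM at time point 11, and at 13.9 RPKM at time point 12. ATG7 footprints spanned 27.6-fold and those of ATG9 24.9-fold, the widest of the 24. The lowest footprint value fell in OX for 22 of 24, where 28.7% of all genes had theirs, the exceptions being ATG5 and ATG27. Without time point 11 it fell in OX for 7 of 24, where 11.1% of all genes had theirs, and in RB for 15.

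In TE, a range of at least 4-fold was reached by 1 of 24, where 12.6% of all genes reached it, and the median range was 2.36-fold, against 2.18-fold over all genes. At time point 9 TE of all 24 lay above its own mean, where 80.8% of all genes did. At time point 11 TE of 21 lay below it, where 32.3% of all genes did. ATG9 had the widest range, 6.03-fold (4.83 to 7.54), with TE of 0.513 to 0.82 at time points 4 to 9, 1.04 at time point 10 and 0.172 at time point 11. ATG2 ranged 3.86-fold, ATG19 3.57-fold and ATG20 3.17-fold, with their highest TE at time point 10. Without time point 11 the range of ATG9 was 2.02-fold, and none of the 24 reached 4-fold. ATG1 (2.01-fold), ATG8 (1.61-fold) and ATG13 (2.16-fold) had narrower ranges, and TE of ATG8 stayed between 1.36 and 2.18.

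The 7 genes left out of the cycle description were low in at least 1 YMC sample. ATG10, the conjugating enzyme for Atg12, was the lowest, with 18 to 165 mRNA counts and under 128 in 23 of 28 samples. It was the 1 gene under the minimums of the starvation test. Its mRNA lay at 3.58, 3.70, 2.51 and 2.88 RPKM in starved BY4741, yJW1862, yJW1863 and yJW1861, against 6.48, 4.76, 5.67 and 4.65 RPKM in replete cells, so the 4 starved values lay below all 4 replete ones, on 21 to 64 counts. Without the filter its mRNA changed by -0.99 (adjusted p = 0.00143, edgeR). ATG16 missed the minimum in 11 samples, ATG14 in 6, ATG29 in 5, ATG38 in 3, ATG12 in 2 and ATG17 in 1. Each of these had its lowest YMC mRNA count at time point 11, with 27 counts for ATG14, 54 for ATG16, 75 for ATG29, 78 for ATG38, 105 for ATG12 and 106 for ATG17. This is the time point at which 22 of the 24 other genes had their lowest mRNA, all but ATG20 and ATG27.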

How the data were processed

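The files hold 56 libraries, an mRNA and a footprint library for each of 28 samples. Per the labels, the submitters' processing notes name CASAVA, Bowtie 1.1.2, TopHat2 2.1.1 and the sacCer3 build. The authors removed ribosomal and transfer RNA, aligned the rest, and deposited read counts per coding sequence, leaving out the first 30 and last 5 codons and positions that are not unique. They deposited RPKM made from the same counts and unmasked lengths. The masks differ between the reporter strains and the other libraries and are shared within a strain, so levels between strains are less comparable than changes within one. The YMC table lists dissolved oxygen as percent saturation, deposited by the authors.

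Genes marked dubious (784) were left out. The 31 genes, the role lists and the pathway lists were chosen with earlier results of these data known. Counts were tested with edgeR 4.0.16 (R 4.3.3, TMM, quasi-likelihood, Benjamini-Hochberg over all genes) on genes whose mean reached 128 counts in the mRNA libraries and 1 in the footprint libraries. Strain was a block, since both samples of a strain came from 1 culture. Deviations of the starved and replete samples of a strain correlated at 0.585 to 0.823 in mRNA and 0.553 to 0.801 in footprints. A TE change was the term by which starvation acted differently on footprint and mRNA libraries, and a single pair was set against the 4 strains by an interaction term, in which that pair is assumed to vary like the others. Pairs and YMC samples were described by RPKM ratios, where both samples (all 16 in the YMC) reached 128 mRNA counts and 1 footprint, with 95% intervals that cover counting error only. In pairs, the median of all genes was subtracted. The edgeR starvation tests over the 4 strains, in mRNA, footprints and TE, were checked on simulated counts. The interaction tests of a single pair and the DESeq2 fits were not.

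The rule for named genes took ATG1, ATG8, ATG9 and ATG13 always, the 8 largest called changes in mRNA, 6 in footprints and 6 in TE, up to 6 called genes of each difference, the 6 widest mRNA and 4 widest TE ranges of the YMC, and up to 4 called genes of each pathway list. The other ATG genes are named so that each of the 31 has its values, and they were seen before they were named. Alternatives were DESeq2 1.42.0 or its size factors, leaving out the filter, the block or 1 strain at a time, a minimum of 32 footprints, a pseudocount of 1 RPKM and no subtraction. Depth lay between 3632217 and 27429226 counts per library, and genes under 128 mRNA counts carry wide counting errors. No sequence is shown and no genome was used here. Names and coordinates of genes come from RefSeq (R64).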

Additional observations from a re-analysis of the deposited data

Results flagged for a closer look

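In BY4741 with CHX, TE of ATG1 changed by 0.35 on the log2 scale under starvation, while in the other 3 strains it changed by -0.45 to -0.33. The gap to the nearest of these is 0.858 of the whole range of the 4 strains. Of 20 groups of 4 examined this was 1, and about 1 in 20 arises by chance.

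The starvation response of the strain labelled yJW1864 differed from that of the 4 strains for 6 ATG genes by the interaction test in edgeR. In mRNA the differences were 0.85 for ATG5, 0.64 for ATG26, 0.57 for ATG21, 0.47 for ATG11 and 0.46 for ATG18 (log2, larger in the strain labelled yJW1864), where 12.9% of all genes were called larger and 4.15% smaller. In footprints they were 1.82 for ATG5 and -0.87 for ATG8, where 10.0% of all genes were called larger and 2.83% smaller. Each rests on 1 pair of samples of a strain whose STB3 counts go against its label, and the part of that in the differences was not tested. The LEU2 and URA3 markers of the strain cannot be told apart from its deletions. Counted in either direction, the share of ATG genes called was near that of all genes in mRNA and below it in footprints. ATG8, ATG11 and ATG18 lost their calls in some alternative fits.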

How the results depend on the processing

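Under starvation in the 4 strains, mRNA calls numbered 25 to 28 when a strain was left out and 25 with no replicate block. Footprint calls numbered 25 to 26 with a strain left out and 24 without the block. TE calls numbered 5 to 13 with a strain left out and 3 without the block. Of the 27, 27 and 10 genes called in mRNA, footprints and TE, 25, 23 and 3 were called under every alternative, and none changed sign. The 3 in TE were ATG8, ATG16 and ATG32. The other 7 lost their TE call without the block, at adjusted p of 0.267 for ATG29, 0.0846 for ATG31, 0.29 for ATG38, 0.0754 for ATG3, 0.131 for ATG4, 0.171 for ATG18 and 0.177 for ATG36 (edgeR). All of these but ATG3 and ATG31 also lost it without at least 1 strain. The difference without CHX called 0 to 1 ATG genes in mRNA when a strain was left out. That of the strain labelled yJW1864 called 3 to 6 in mRNA and 1 to 5 in footprints. These fits were added after seeing the data, as was leaving out time point 11. With no subtraction of the median of all genes, the median ATG change was 1.00 in mRNA, 1.29 in footprints and 0.36 in TE over the 4 strains, 1.02, 1.41 and 0.22 in the strain labelled yJW1864, and 1.01, 1.40 and 0.39 in BY4741 without CHX. The difference with CHX then turned sign, to 0.17 in mRNA and -0.76 in TE of replete cells and 0.19 in mRNA and -0.86 in TE of starved cells. With 32 footprints as the minimum, BY4741 without CHX had medians of 0.79 in mRNA and 0.10 in TE, and the TE difference with CHX in starved cells was 0.15. With a pseudocount of 1 RPKM and no minimums, the medians were 1.07 in footprints and 0.11 in TE of BY4741 without CHX and 0.25 in TE of the 4 strains, and the TE difference with CHX in replete cells was -0.023. YMC ranges of at least 4-fold numbered 3 in mRNA, 4 in footprints and 0 in TE by the second highest over the second lowest value, and 5, 4 and 0 without time point 11. In TE they numbered 3 after dividing by the sample median and 3 with the pseudocount. The cause of these shifts was not tested. Of the remaining summary values under an alternative, 96 stayed on the same side or within the same size. Values that passed no test did change sign, such as ATG5 mRNA, at -0.10 to 0.13. YMC time points and the pairs of BY4741 without CHX and of the strain labelled yJW1864 have 1 sample each, which limits them to counting error.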
